A study of Mus musculus with 37 samples.

Results

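The transcriptional response of mouse leukemic pre-B cells, transformed by BCR-ABL1, to all-trans retinoic acid (ATRA) was measured in cells that carried the empty vector MIG. It comprises 8 of the 37 libraries of the study, the 4 titled MIG-ATRA set against the 4 titled MIG-DMSO, and the libraries were chosen by these titles alone. Cells of both groups were pre-B cells from adult C57BL/6 bone marrow with the genotype Arf-/-, were transformed with the p185 form of BCR-ABL1, and expressed green fluorescent protein from MIG. They grew in serum-containing medium to which no cytokines were given. The MIG-ATRA cells received ATRA at 1 µM dissolved in DMSO and the MIG-DMSO cells received DMSO. For side comparisons, the same treatments in cells with IK6, the isoform of IKAROS that lacks its DNA-binding part and acts as a dominant negative (4 libraries of each), and 3 MIG libraries with 1 µM bexarotene were used. Time of treatment, number of donor mice and clonality of the cultures are unstated here. Nor do the labels say whether the 4 libraries of a group are separate cultures, and the spread behind each p-value is thus that between libraries and may be technical. In bulk RNA, fewer cells of a kind and less RNA per cell cannot be told apart.

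Retinoic acid binds the retinoic acid receptors (RARs), which pair with retinoid X receptors (RXRs) on DNA and recruit coactivators when ligand is bound. Classical RAR sites are 2 half-sites in the same orientation separated by 5 bases (DR5), and target genes include those of the enzymes that degrade retinoic acid. RXRs also pair with the liver X receptors (LXRs), which control cholesterol efflux and lipid synthesis. In myeloid cells retinoic acid is known for driving differentiation together with exit from the cell cycle, and in lymphocytes for regulating homing receptors.

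The labels were checked against expression. The 9 pre-B markers summed to 5030 to 5680 CPM (counts per 1000000, scaled by library size) in the ATRA libraries and 3800 to 4970 CPM in the DMSO libraries, with Cd79a, Cd79b and Pax5 present throughout. Total counts were 16478899 to 34173288 per ATRA library and 29393905 to 47969941 per DMSO library. MIG-DMSO replicate 3 stood apart from its group: ribosomal protein genes held 14.88% of its counts, against 8.84 to 10.3% in the ATRA libraries and 8.97 to 9.51% in the other 3 DMSO libraries. Its counts differed from those of its group by a chi-square per degree of freedom of 83.3 to 106, while all other pairs within the 2 groups gave 2.22 to 16.1. No pair held identical values. The first principal component separated ATRA from DMSO libraries and held 75.6% of the variance of the 1000 most variable genes. The second held 7.63% and was led by MIG-DMSO replicate 3. For ATRA against DMSO in MIG cells, counts of list members and calls of named genes that change without that library are given with and without it.

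The response covered a large share of the transcriptome, in both directions. Of 15699 tested genes, 6566 passed an adjusted p under 0.05 (41.8%) by edgeR's quasi-likelihood test with Benjamini-Hochberg adjustment, 3233 of them higher with ATRA (20.6%) and 3333 lower (21.2%). The change was at least 2-fold in 1370 (8.73%), of which 723 were higher (4.61%) and 647 lower (4.12%). The median log2 fold change of all tested genes was -0.0078, with quartiles at -0.27 and 0.27. The scaling between libraries (TMM) centres the bulk of genes near 0, so the even split of directions is not a result in itself. In 6266 genes (39.9%) the 4 ATRA libraries did not overlap the 4 DMSO libraries. Called shares differed by gene type, from 45.7% of 13126 protein-coding genes to 27.6% of 681 lincRNA genes and 19.9% of 949 pseudogenes. The types were not matched by level, and a gene with few counts is harder to call. Below, "rose" and "fell" refer to genes past this threshold, fold changes are ATRA over DMSO on the log2 scale with their SE, levels are CPM, and the shares above are the background for every count of list members. Each SE is the absolute log2 fold change divided by the square root of the F statistic of its test. For genes with few counts in a group, such an SE can be smaller than counting error alone.

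**Figure D1:**
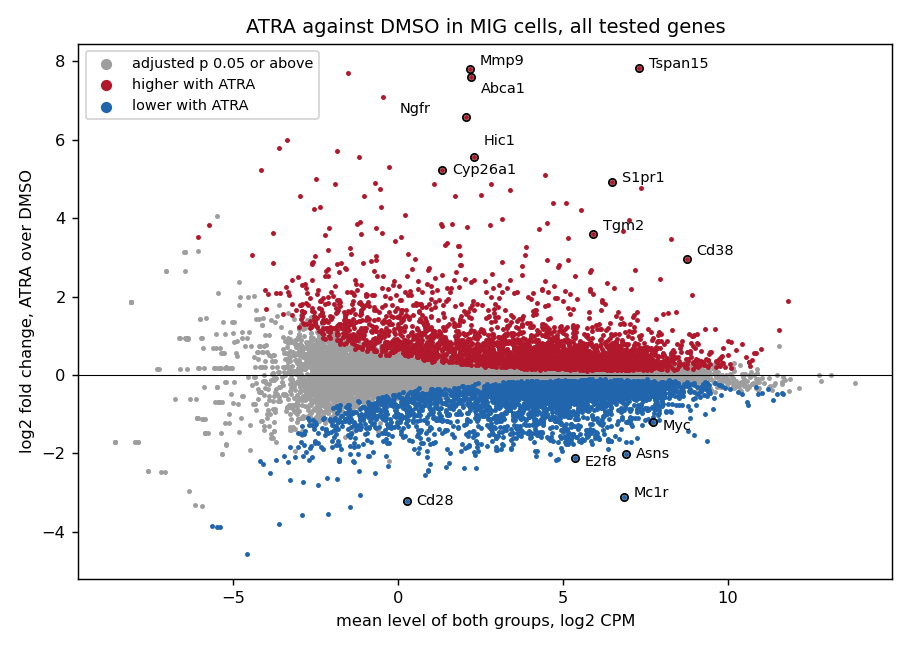
Log2 fold change of ATRA over DMSO in MIG cells (vertical axis) against the mean level of both groups in log2 CPM (horizontal axis, log scale), 1 point per tested gene, omitting genes at 0 in both groups. Red points are the 3233 genes higher with ATRA, blue points the 3333 lower and grey points those not called. Changes of the highest rising genes reach 7.82 (Tspan15), whereas the largest named fall is -3.22 (Cd28).

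The best known direct targets of the RARs carry their DR5 site close to the transcription start. The promoters of Cyp26a1, encoding a cytochrome P450 that oxidises retinoic acid, and Rarb, encoding RARβ, are printed because their ATRA responses are compared next. Each runs from 250 bases before to 50 after the start, as given by RefSeq for GRCm38.p6, at chr19:37697558-37697857 on the plus strand and chr14:16575427-16575726 on the minus strand. The capitals mark 2 half-sites (each AGGTCA or GGTTCA or AGTTCA or GGGTCA, on either strand) with the 5 bases between them.
Cyp26a1: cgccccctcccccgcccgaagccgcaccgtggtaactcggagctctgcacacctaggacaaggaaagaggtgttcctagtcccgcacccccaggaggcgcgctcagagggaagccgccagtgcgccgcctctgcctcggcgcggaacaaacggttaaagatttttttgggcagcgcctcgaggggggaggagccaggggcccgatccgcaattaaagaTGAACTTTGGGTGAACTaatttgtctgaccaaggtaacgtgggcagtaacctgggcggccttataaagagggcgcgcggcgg
Rarb: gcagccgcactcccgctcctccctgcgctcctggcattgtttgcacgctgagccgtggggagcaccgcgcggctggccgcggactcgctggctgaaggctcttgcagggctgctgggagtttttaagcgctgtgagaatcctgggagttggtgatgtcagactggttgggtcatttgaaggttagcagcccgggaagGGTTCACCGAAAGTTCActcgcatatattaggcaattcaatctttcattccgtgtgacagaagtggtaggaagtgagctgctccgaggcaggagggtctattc
The match lay 32 to 16 bases before the start of Cyp26a1 on the minus strand and 53 to 37 bases before the start of Rarb on the plus strand. Such a pair was found in 31 of 27025 promoters in the RefSeq table (0.115%) and in 2 of 12 matched retinoic acid response genes, which were these 2. A match describes the letters only and is not evidence of binding.

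Although both promoters hold a DR5 pair, Cyp26a1 rose strongly while the change of Rarb did not pass the test. Cyp26a1 (ENSMUSG00000024987) had 4.21, 4.998, 5.28 and 5.38 CPM in the ATRA libraries, against 0.193, 0.0847, 0.157 and 0.102 CPM in the DMSO libraries. All 4 ATRA libraries lay far above all 4 DMSO libraries, which were near the lower limit of detection, and the log2 fold change was 5.24 ± 0.25 (SE; adjusted p = 7.57e-18). Rarb (ENSMUSG00000017491) had 0.692, 1.18, 0.614 and 0.594 CPM in the ATRA libraries, against 0.7702, 0.424, 0.353 and 0.474 CPM in the DMSO libraries. The groups overlapped at these low levels, and the log2 fold change was 0.64 ± 0.31 (SE; adjusted p = 0.0958). Without MIG-DMSO replicate 1, the highest of its group, it was 0.91 with an adjusted p of 0.0289. MIG-ATRA replicate 2, at 1.18 CPM, stood far above the rest of its group. The remaining ATRA libraries, at 0.594 to 0.692 CPM, lay below MIG-DMSO replicate 1.

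Among the 18 genes of retinoid enzymes and binding proteins, 10 were tested, 3 rose and 4 fell. The second retinoic acid hydroxylase that was measured, Cyp26c1, rose to 0.781 CPM with ATRA, against 0.0597 CPM with DMSO (log2 3.85 ± 0.59, and 4.65 without MIG-DMSO replicate 4). Dhrs3 (ENSMUSG00000066026) had 6.98, 6.18, 7.13 and 7.34 CPM in the ATRA libraries, against 3.88, 4.15, 4.15 and 3.69 CPM in the DMSO libraries. Dhrs3 encodes a reductase that returns retinaldehyde to retinol, and its 4 ATRA libraries all exceeded the DMSO libraries, with a log2 fold change of 0.79 ± 0.12 (SE; adjusted p = 1.31e-06). The 4 genes of the list that fell changed by small amounts. The retinol dehydrogenase genes Rdh10 and Rdh11 had log2 fold changes of -0.27 ± 0.10 and -0.25 ± 0.095, the retinol saturase gene Retsat -0.44 ± 0.11, and Fabp5, whose product carries retinoic acid and fatty acids, -0.48 ± 0.16. Of these 4 falls, 2 were called without MIG-DMSO replicate 2, MIG-DMSO replicate 3 or MIG-ATRA replicate 4, and 1 without MIG-ATRA replicate 3. Fabp5 was -0.31 without MIG-DMSO replicate 3 (adjusted p = 0.114), Rdh11 -0.18 (adjusted p = 0.144), and Rdh10 -0.21 without MIG-DMSO replicate 1 (adjusted p = 0.13). The retinaldehyde dehydrogenase genes Aldh1a1 and Aldh1a2, the binding protein genes Crabp1 and Crabp2 and the retinol transporter gene Stra6 were too low to be tested.

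Of 15 retinoid and lipid nuclear receptor genes, 12 were tested, 2 rose and 1 fell. Rara, encoding RARα, had 83.3 and 74.5 CPM with ATRA and with DMSO and did not pass the test (log2 0.16 ± 0.10 (SE; adjusted p = 0.216)). Rarg (ENSMUSG00000001288) had 2.58, 2.75, 2.09 and 2.97 CPM in the ATRA libraries, against 1.19, 1.14, 1.02 and 1.29 CPM in the DMSO libraries. Rarg, encoding RARγ, was higher in all 4 ATRA libraries, with a log2 fold change of 1.18 ± 0.19 (SE; adjusted p = 5.62e-06). The vitamin D receptor gene Vdr rose by 0.75 ± 0.21. Among the RXR genes, Rxra fell by a log2 fold change of -0.36 ± 0.10 (SE; adjusted p = 0.00332), Rxrb had 114 and 123 CPM with ATRA and with DMSO (log2 -0.10 ± 0.07 (SE; adjusted p = 0.251)), and Rxrg was at 0 in all 8 libraries. The LXR genes Nr1h2 and Nr1h3 had log2 fold changes of 0.19 ± 0.11 and 0.63 ± 0.30, neither called. Of 13 coregulator genes, 4 rose and none fell, among them the coactivator gene Ncoa3 (0.36 ± 0.078) and the acetyltransferase genes Crebbp (0.42 ± 0.15) and Ep300 (0.30 ± 0.11). Without MIG-DMSO replicate 3 the count was 2 higher and 1 lower, where Crebbp had 0.31 (adjusted p = 0.109) and Ep300 0.22 (adjusted p = 0.126). Crebbp also missed the threshold without MIG-ATRA replicate 3 or 4 (adjusted p = 0.0514 and 0.0505) and Ep300 without MIG-ATRA replicate 2 (adjusted p = 0.0581).

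Other retinoic acid response genes rose or were not called. Of 18 in the list, 10 were tested, 6 rose and none fell, with a median log2 fold change of 1.22 over the tested members, against -0.0078 over all tested genes. Cd38 (ENSMUSG00000029084) had 808, 782, 702 and 757 CPM in the ATRA libraries, against 102, 97.8, 95.9 and 98.6 CPM in the DMSO libraries. Cd38 encodes an ectoenzyme that hydrolyses NAD at the cell surface and is a classical retinoid target in leukemia cells. Its mean was 7.73 times as high with ATRA, a log2 fold change of 2.95 ± 0.068 (SE; adjusted p = 1.58e-26). Tgm2 (ENSMUSG00000037820) had 129, 104, 99.03 and 118 CPM in the ATRA libraries, against 8.18, 8.45, 11.2 and 9.52 CPM in the DMSO libraries. Tgm2, encoding tissue transglutaminase, thus stood clear of the DMSO libraries in all 4 ATRA libraries (log2 3.59 ± 0.13 (SE; adjusted p = 7.09e-21)). Hic1 (ENSMUSG00000043099) had 10.2, 8.43, 10.5 and 9.800 CPM in the ATRA libraries, against 0.321, 0.212, 0.0784 and 0.169 CPM in the DMSO libraries. Hic1, the gene of a transcriptional repressor, thus had several CPM with ATRA and almost none with DMSO (log2 5.56 ± 0.25 (SE; adjusted p = 1.84e-18)). Asb2 (ENSMUSG00000021200) had 27.5, 25.5, 31.3 and 26.8 CPM in the ATRA libraries, against 8.66, 8.305, 9.88 and 8.47 CPM in the DMSO libraries. Asb2, which encodes a ubiquitin ligase subunit first studied as a retinoid-induced gene of myeloid leukemia, also had no overlap (log2 1.65 ± 0.11 (SE; adjusted p = 1.43e-14)). Nrip1, encoding a corepressor of nuclear receptors, did not pass the test (-0.23 ± 0.10), but without MIG-DMSO replicate 3 it was lower by -0.3 (adjusted p = 0.0217), and Cyp26b1, Stra8, Cebpe, Hoxb1 and Cdx1 were not tested for low counts.

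The 12 largest rises were picked among genes of at least 1 CPM without overlap between the groups. Of these, 9 were in genes under 1 CPM with DMSO, the others being Tspan15, Cd300lf and S1pr1. Tspan15 (ENSMUSG00000037031) had 330.3, 295, 311 and 322 CPM in the ATRA libraries, against 1.77, 1.23, 1.57 and 1.05 CPM in the DMSO libraries. Tspan15, a tetraspanin gene whose product guides the protease ADAM10, had the largest rise, with a log2 fold change of 7.82 ± 0.17 (SE; adjusted p = 6.62e-27). Mmp9 (ENSMUSG00000017737) had 11.9, 8.25, 7.06 and 9.03 CPM in the ATRA libraries, against 0.0321, 0.0424, 0 and 0.0677 CPM in the DMSO libraries. Mmp9, encoding a secreted gelatinase, was near 0 in each DMSO library and between 7.06 and 11.9 CPM with ATRA (log2 7.81 ± 0.32 (SE; adjusted p = 1.37e-19)). The DMSO libraries held only 5 counts of Mmp9 in all, so the size of its rise is less certain than this SE. Mras, a gene of a RAS-like GTPase, had 172 counts over the 4 ATRA libraries and 1 count over the 4 DMSO libraries, a ratio of 202 after scaling to the total counts, with an exact 95% interval of 35.7 to 8010. Tll2, encoding a metalloprotease, had 79 counts with ATRA and 0 with DMSO, at least 30.9-fold higher when the DMSO group as a whole is given a floor of 3 counts. These intervals and floors cover counting error only. Other genes among the 12 largest rises were Ngfr, a neurotrophin receptor gene (6.59 ± 0.29), Prss30, a serine protease gene (5.31 ± 0.35, and 5.94 without MIG-DMSO replicate 2), Cd300lf, an inhibitory receptor gene (5.10 ± 0.14) and Rab20, a vesicle traffic GTPase gene (4.88 ± 0.20). The list also held the pseudogene Rpl31-ps6 (4.90 ± 0.51), whose reads may belong to near-identical copies.

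Falls were smaller than rises at the extremes. The 12 largest falls were also picked among genes without overlap, so separation of the groups was part of their choice. Cd28 (ENSMUSG00000026012) had 0.2202, 0.266, 0.123 and 0.267 CPM in the ATRA libraries, against 2.28, 2.14, 1.69 and 2.68 CPM in the DMSO libraries. Cd28, the costimulatory receptor gene best known from T cells, thus lay lower in all 4 ATRA libraries (log2 -3.22 ± 0.26 (SE; adjusted p = 2.88e-12)). Mc1r (ENSMUSG00000074037) had 27.5, 25.2, 18.4 and 24.1 CPM in the ATRA libraries, against 183, 202, 236 and 208 CPM in the DMSO libraries. Mc1r, encoding the melanocortin receptor, fell without overlap (log2 -3.11 ± 0.14 (SE; adjusted p = 7.94e-19)). Further members of the 12 largest falls were Kcnh1, a potassium channel gene (-2.50 ± 0.32), Cst7, encoding an inhibitor of cathepsins (-2.38 ± 0.15), Wnt10a, a WNT ligand gene (-2.35 ± 0.18), Cth, encoding the cystathionine cleaving enzyme of cysteine synthesis (-2.16 ± 0.10), E2f8, an atypical E2F repressor gene (-2.11 ± 0.11) and Nos2, the inducible nitric oxide synthase gene (-2.08 ± 0.28). Megf10 (-2.28 ± 0.16), Cpeb1 (-2.44 ± 0.24) and Esx1 (-2.25 ± 0.28) were also among them.

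**Figure D2:**
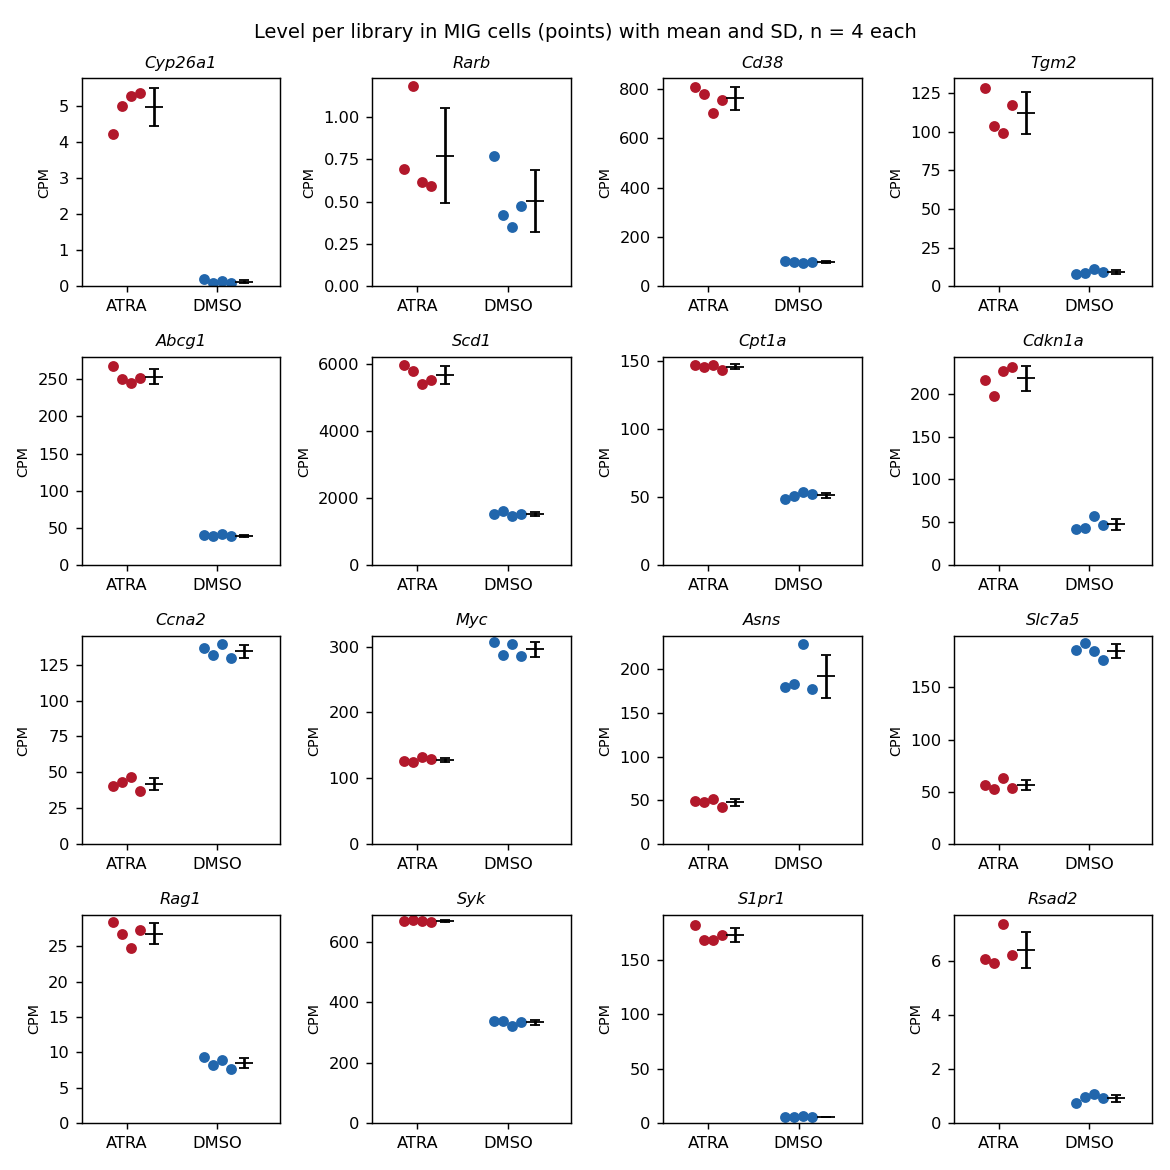
Level of 16 genes in each library of MIG cells in CPM (linear axes from 0), with the 4 ATRA libraries in red left of the 4 DMSO libraries in blue and black bars for mean and SD. The groups do not overlap in 15 of the 16 genes, and they overlap in Rarb.

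Genes of cholesterol efflux and lipid desaturation that LXR and RXR control rose together. Of 16 listed, 14 were tested, 11 rose (10 without MIG-DMSO replicate 3) and none fell, with a median of 0.91. Abca1 (ENSMUSG00000015243) had 10.1, 10.6, 7.802 and 8.64 CPM in the ATRA libraries, against 0, 0.0424, 0.0392 and 0.102 CPM in the DMSO libraries. Abca1 encodes the transporter that loads cholesterol onto apolipoproteins and rose in cells that had almost no signal in DMSO (log2 7.60 ± 0.30 (SE; adjusted p = 7.55e-20), and 8.19 without MIG-DMSO replicate 4). With only 6 counts of Abca1 in the DMSO libraries, the size of its rise is less certain than this SE. Abcg1 (ENSMUSG00000024030) had 268, 251, 245 and 251 CPM in the ATRA libraries, against 40.2, 38.9, 41.5 and 38.9 CPM in the DMSO libraries. Abcg1, its partner in efflux to mature lipoproteins, was 6.37 times as high with ATRA (log2 2.67 ± 0.059 (SE; adjusted p = 5.82e-27)). Mylip had 154, 149, 153 and 160 CPM in the ATRA libraries, against 33.4, 33.7, 31.6 and 33.2 CPM in the DMSO libraries. Mylip, encoding the ligase that degrades the LDL receptor, had a log2 fold change of 2.22 ± 0.044 (SE; adjusted p = 2.67e-28), with no overlap between the groups. Scd1 had 5974, 5796, 5396 and 5526 CPM in the ATRA libraries, against 1529.5, 1604, 1466 and 1538 CPM in the DMSO libraries. Scd1, the gene of stearoyl-CoA desaturase, had a log2 fold change of 1.89 ± 0.076 (SE; adjusted p = 8.08e-20), and its relative Scd2 one of 1.14 ± 0.067 (SE; adjusted p = 1.37e-15). Srebf1, encoding the lipogenic transcription factor SREBP1, averaged 298 ± 19.7 CPM with ATRA and 167 ± 7.200 CPM with DMSO (SD, n = 4 each; log2 0.83 ± 0.076 (SE; adjusted p = 6.38e-11)). Lpcat3, a phospholipid remodelling enzyme gene (0.92 ± 0.091), Arl4c (0.90 ± 0.057) and Pltp (0.54 ± 0.12) rose, whereas Apoe (0.35 ± 0.19) and Nr1h3 did not pass. No pair of half-sites spaced by 4 bases, the LXR spacing, was found in the promoters of 11 matched members, and 26 of all 27025 promoters held one (0.0962%).

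Abcg1, Abca1 and Srebf1 were higher in the libraries labelled ATRA than in those labelled bexarotene, a synthetic ligand of RXR, and so were Tgm2 and Cyp26a1. Abcg1 averaged 254 CPM with ATRA, 4.88 with bexarotene and 39.9 with DMSO, and the log2 difference of ATRA over bexarotene was 5.70 ± 0.08 (SE; adjusted p = 2.22e-32). Abca1 averaged 9.297 CPM with ATRA, 0.0251 with bexarotene and 0.0458 with DMSO, a log2 difference of 8.30 ± 0.36 (SE; adjusted p = 1.33e-18). Srebf1 averaged 298 CPM with ATRA, 86.6 with bexarotene and 167 with DMSO (1.78 ± 0.086 (SE; adjusted p = 2.43e-17)), and Tgm2 112 CPM with ATRA, 7.52 with bexarotene and 9.34 with DMSO (3.90 ± 0.15 (SE; adjusted p = 5.70e-20)). Cyp26a1 averaged 4.97 CPM with ATRA, 0.452 with bexarotene and 0.134 with DMSO (3.43 ± 0.22 (SE; adjusted p = 5.79e-14)). These values stand with the labels as given, and whether each library holds the compound on its label was not tested. Both comparisons with DMSO share the same 4 DMSO libraries.

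Lipid synthesis genes moved in both directions. Of 13 fatty acid synthesis and desaturation genes, 11 were tested, 7 rose (6 without MIG-DMSO replicate 3) and 1 fell, and 3 of those that rose, Scd1 and Scd2 among them, are also counted with the targets above. Acaca, the gene of acetyl-CoA carboxylase, rose by 0.51 ± 0.087 and Acsl3, an acyl-CoA synthetase gene, by 0.41 ± 0.061. Fads1, encoding a delta-5 desaturase, fell (-0.48 ± 0.047). Cholesterol synthesis genes showed no common direction: of 21, 4 rose and 4 fell (5 and 3 without MIG-DMSO replicate 3), with a median of 0.045. These counts are near the shares of all tested genes (20.6% higher and 21.2% lower). Insig1, which retains the SREBP complex in the ER, rose (0.36 ± 0.056), and the sterol carrier gene Stard4 fell (-0.47 ± 0.076). With the ribosomal protein share of each library as a covariate, 9 cholesterol synthesis genes were higher.

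Among genes for the entry of fatty acids into cells and mitochondria, 3 rose clearly. Cpt1a (ENSMUSG00000024900) had 147, 146, 147 and 143 CPM in the ATRA libraries, against 48.9, 50.7, 53.5 and 51.9 CPM in the DMSO libraries. Cpt1a, encoding the rate-limiting carnitine palmitoyltransferase of the outer membrane, was thus 2.84 times as high (log2 1.51 ± 0.05 (SE; adjusted p = 6.37e-22)). Slc25a20 had 29.1, 27.9, 27.2 and 25.98 CPM in the ATRA libraries, against 6.001, 6.33, 7.798 and 5.79 CPM in the DMSO libraries. Slc25a20, the mitochondrial carnitine-acylcarnitine carrier gene, had a log2 fold change of 2.09 ± 0.12 (SE; adjusted p = 1.21e-15). Cd36 had 26.5, 25.2, 20.8 and 21.4 CPM in the ATRA libraries, against 2.89, 2.94, 4.35 and 3.66 CPM in the DMSO libraries. Cd36 encodes a fatty acid translocase, and its groups did not overlap (log2 2.78 ± 0.13 (SE; adjusted p = 2.14e-18)). Of the 18 fatty acid oxidation genes, 17 were tested, 8 rose and 2 fell, with a median of 0.17, and 1 fell without MIG-DMSO replicate 3 or without MIG-ATRA replicate 2, 3 or 4. Pdk4, which restrains pyruvate oxidation, averaged 0.114 CPM with ATRA and had 0 counts in all DMSO libraries. The matrix enzyme gene Acadl fell by a small amount (-0.25 ± 0.074), and Ucp2, encoding an uncoupling protein, was not called (-0.20 ± 0.10).

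Genes of mitosis fell as a block. All 24 in the list were tested and fell, each by at least 2-fold, with a median log2 fold change of -1.55 and a range of -1.75 to -1.20. Ccna2 (ENSMUSG00000027715) had 40.3, 43.03, 46.4 and 36.7 CPM in the ATRA libraries, against 137, 132, 139.7 and 129.7 CPM in the DMSO libraries. Ccna2, encoding cyclin A2 of S phase and early mitosis, had a DMSO mean 3.23 times its ATRA mean (log2 -1.69 ± 0.065 (SE; adjusted p = 2.71e-20)). Ccnb1 had 36.4, 40.4, 45.5 and 37.8 CPM in the ATRA libraries, against 119.8, 125, 132 and 120.4 CPM in the DMSO libraries. Ccnb1, the gene of mitotic cyclin B1, gave a log2 fold change of -1.64 ± 0.069 (SE; adjusted p = 2.47e-19). Mki67, the proliferation marker Ki-67, averaged 312 and 1007 CPM with ATRA and with DMSO (-1.69 ± 0.16). The spindle checkpoint genes Bub1 (-1.75 ± 0.10) and Bub1b (-1.38 ± 0.054), the spindle factor gene Tpx2 (-1.62 ± 0.067), the kinase genes Plk1 (-1.59 ± 0.093) and Aurka (-1.55 ± 0.09), and Foxm1, encoding a transcription factor of this program (-1.39 ± 0.10), fell by like amounts. The plot of gene lists shows the members side by side.

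Promoters of Ccnb2, encoding cyclin B2, and Top2a, encoding topoisomerase II alpha, are printed as examples of this block, with the cell cycle homology region motif TTTGAA in capitals. Both are RefSeq sequences of GRCm38.p6, at chr9:70421505-70421804 on the minus strand and chr11:99024140-99024439 on the minus strand.
Ccnb2: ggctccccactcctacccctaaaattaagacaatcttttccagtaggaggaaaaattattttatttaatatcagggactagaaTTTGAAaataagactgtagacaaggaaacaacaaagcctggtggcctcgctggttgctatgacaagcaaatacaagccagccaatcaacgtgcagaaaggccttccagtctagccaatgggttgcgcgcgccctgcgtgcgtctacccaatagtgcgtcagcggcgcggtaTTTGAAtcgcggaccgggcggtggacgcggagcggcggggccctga
Top2a: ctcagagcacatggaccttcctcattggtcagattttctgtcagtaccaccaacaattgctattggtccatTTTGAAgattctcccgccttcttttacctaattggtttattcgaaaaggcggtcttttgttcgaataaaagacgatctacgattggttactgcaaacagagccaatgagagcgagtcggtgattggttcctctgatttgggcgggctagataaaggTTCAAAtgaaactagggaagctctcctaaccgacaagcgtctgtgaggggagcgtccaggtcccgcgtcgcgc
In Ccnb2 the matches on the plus strand lay 167 to 162 bases before the start and 4 to 9 bases after it, and in Top2a they lay 179 to 174 bases before it on the plus strand and 23 to 18 bases before it on the minus strand. On either strand the motif was present in 11 of 19 matched mitosis genes (57.9%), against 5466 of 27025 promoters (20.2%). In the 250 bases before the start alone it was in 7 of the 19 (36.8%), against 18.3% of promoters. Ccnb2 had 24.9, 26.4, 30.8 and 28.4 CPM in the ATRA libraries, against 77.4, 76.4, 94.95 and 74.6 CPM in the DMSO libraries. Top2a had 234, 272, 287 and 231 CPM in the ATRA libraries, against 782, 759, 716 and 724 CPM in the DMSO libraries. Both genes were lower in every ATRA library, with log2 fold changes of -1.55 ± 0.11 (SE; adjusted p = 5.84e-14) for Ccnb2 and -1.54 ± 0.085 (SE; adjusted p = 2.57e-16) for Top2a.

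DNA replication genes fell as well. Of 26, all tested, 24 fell and none rose, with a median of -0.90, and 9 fell by at least 2-fold. Prim1 had 15.6, 17.4, 17.7 and 15.8 CPM in the ATRA libraries, against 36.8, 36.9, 41.4 and 35.6 CPM in the DMSO libraries. Prim1 encodes the small primase subunit, and its log2 fold change was -1.18 ± 0.073 (SE; adjusted p = 5.46e-15). Pola1, the catalytic subunit gene of DNA polymerase alpha, fell by -1.27 ± 0.11, the ribonucleotide reductase genes Rrm1 and Rrm2 by -1.06 ± 0.08 and -1.09 ± 0.094, the maintenance methylation factor gene Uhrf1 by -1.18 ± 0.076 and the replication helicase gene Mcm5 by -1.05 ± 0.11. The G1 cyclin gene Ccne1 did not pass (-0.12 ± 0.10), and E2f1, the gene of the S phase transcription factor, fell by -0.27 ± 0.078.

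**Figure D3:**
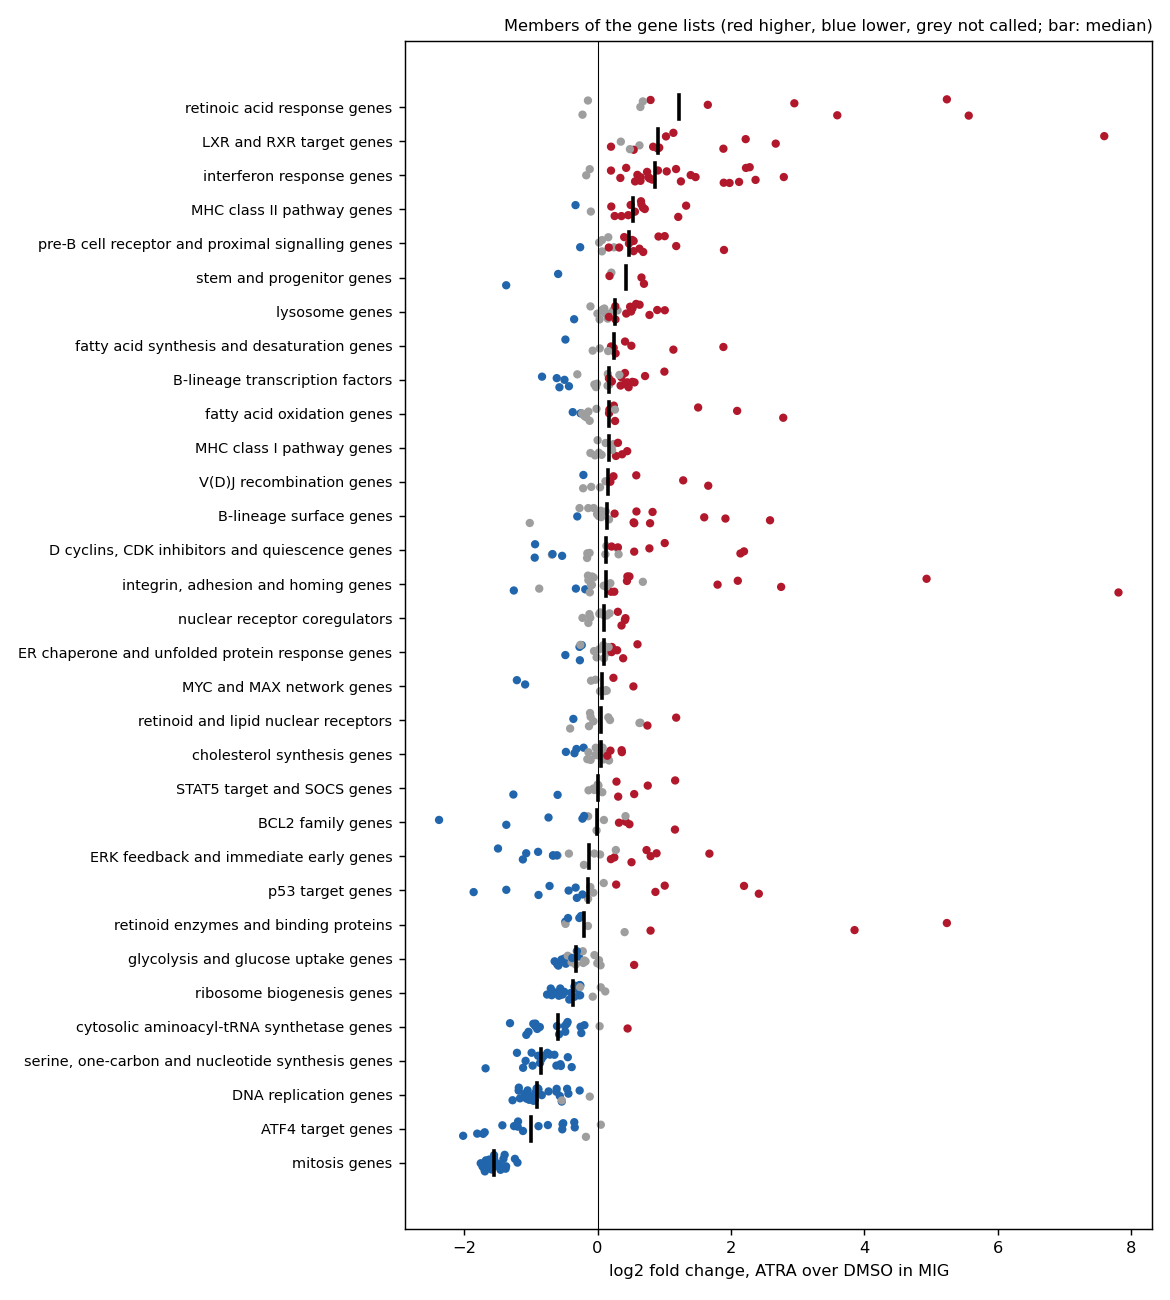
Log2 fold change of ATRA over DMSO in MIG cells for each tested member of the 32 gene lists (horizontal axis), ordered by list median (black bars). Red members were called higher, blue lower and grey not called. All mitosis genes lie between -1.75 and -1.20, and the medians of retinoic acid response, LXR and RXR target and interferon response genes are the 3 highest. Members without counts in all DMSO libraries are not drawn.

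Regulators of the G1 phase moved in both directions, 7 of 19 up (9 without MIG-DMSO replicate 3) and 4 down. The share that fell was near that of all tested genes (21.2%). Cdkn1a (ENSMUSG00000023067) had 216, 197, 226 and 231 CPM in the ATRA libraries, against 42.6, 43.6, 57.3 and 46.9 CPM in the DMSO libraries. Cdkn1a, encoding the CDK inhibitor p21, was 4.58 times as high with ATRA (log2 2.20 ± 0.11 (SE; adjusted p = 2.55e-17)). Klf2 (ENSMUSG00000055148) had 54.01, 45.7, 55.8 and 60.8 CPM in the ATRA libraries, against 11.2, 11.97, 13.4 and 12.5 CPM in the DMSO libraries. Klf2, the gene of a transcription factor that holds lymphocytes in quiescence, also had no overlap (log2 2.14 ± 0.13 (SE; adjusted p = 7.16e-15)). The antiproliferative genes Btg2 and Btg1 rose by 1.01 ± 0.08 and 0.78 ± 0.075. Among D cyclins, Ccnd2 averaged 2120.4 ± 59.1 CPM with ATRA and 1449 ± 8.57 CPM with DMSO (SD, n = 4 each; log2 0.55 ± 0.061 (SE; adjusted p = 5.19e-09)), Ccnd1 fell (-0.53 ± 0.064), and Ccnd3 did not pass the test (log2 0.29 ± 0.13 (SE; adjusted p = 0.0658)), but did without MIG-DMSO replicate 3 (0.41; adjusted p = 0.0117) or MIG-ATRA replicate 2 (0.35; adjusted p = 0.0442). Cdk6, the kinase gene for D cyclins, fell by -0.94 ± 0.14, and Cdkn2c, encoding the CDK inhibitor p18, by -0.94 ± 0.072. Cdkn1b, encoding p27, was not called (0.12 ± 0.06 (SE; adjusted p = 0.122)).

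The rise of Cdkn1a was not shared by p53 target genes in general. Of 19, 17 were tested, 5 rose and 8 fell (6 without MIG-DMSO replicate 3), with a median of -0.14. Plk2 (2.42 ± 0.11), Btg2 and Trp53inp1 (0.87 ± 0.10) rose. The proapoptotic gene Bbc3, encoding PUMA, fell (-1.37 ± 0.16), as did Phlda3 (-1.86 ± 0.17), Sesn2 (-0.89 ± 0.07) and the death receptor gene Tnfrsf10b (-0.72 ± 0.10). Without MIG-ATRA replicate 4, 5 genes were lower in place of 8. Cdkn2a, which also encodes the remaining p16 product in Arf-/- cells, averaged 80.1 and 77.7 CPM with ATRA and with DMSO (log2 0.045 ± 0.23 (SE; adjusted p = 0.903)), and reads of its shared exons do not check the Arf genotype.

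Myc, encoding the growth-promoting transcription factor MYC, fell. Myc (ENSMUSG00000022346) had 126, 124, 132 and 129.7 CPM in the ATRA libraries, against 307, 287, 303 and 285 CPM in the DMSO libraries. The groups stood well apart, and the DMSO mean was 2.31 times the ATRA mean (log2 -1.21 ± 0.056 (SE; adjusted p = 3.45e-18)). Of 10 MYC and MAX network genes, 2 rose and 2 fell, near the shares of all tested genes (20.6% higher and 21.2% lower). Mxd4, a MYC antagonist gene (0.54 ± 0.075), and Mycn (0.24 ± 0.069) rose, and Mxd3 (-1.09 ± 0.19) fell with Myc. Of 24 ribosome biogenesis genes, 20 fell (19 without MIG-DMSO replicate 3) and none rose, with a median of -0.37. The nucleolar protein genes Npm1 and Ncl fell by -0.76 ± 0.075 and -0.70 ± 0.082, Dkc1, encoding the pseudouridine synthase dyskerin, by -0.62 ± 0.059, and Polr1b, an RNA polymerase I subunit gene, by -0.67 ± 0.064.

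Genes for the synthesis of serine, one-carbon units and nucleotides fell in every member of the list. All 19 genes were called lower, with a median of -0.84 and a range of -1.68 to -0.39. Mthfd2 (ENSMUSG00000005667) had 37.8, 39.1, 43.1 and 38.2 CPM in the ATRA libraries, against 121, 127, 134 and 123 CPM in the DMSO libraries. Mthfd2, the mitochondrial folate enzyme gene, was lower in each ATRA library than in any DMSO library (log2 -1.68 ± 0.071 (SE; adjusted p = 2.89e-19)). Phgdh, encoding the first enzyme of serine synthesis, fell by -1.21 ± 0.15, Shmt1 and Shmt2, which pass the serine carbon to folate, by -0.99 ± 0.07 and -0.80 ± 0.079, Impdh2 of guanine nucleotide synthesis by -1.08 ± 0.14, and Paics of purine synthesis by -0.97 ± 0.12.

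ATF4 is the transcription factor of the amino acid stress response, and its target genes include amino acid transporters, asparagine synthetase and tRNA synthetases. Of 18 ATF4 target genes, 16 fell (15 without MIG-DMSO replicate 3) and none rose, with a median of -1.002. Asns (ENSMUSG00000029752) had 49.04, 47.6, 51.5 and 42.1 CPM in the ATRA libraries, against 179.6, 183, 229 and 177 CPM in the DMSO libraries. Asns, the asparagine synthetase gene, had a DMSO mean 4.04 times the ATRA mean (log2 -2.01 ± 0.11 (SE; adjusted p = 1.53e-16)), with MIG-DMSO replicate 3 the highest library. Slc7a5 had 56.2, 52.8, 62.8 and 53.3 CPM in the ATRA libraries, against 186, 192, 184 and 176 CPM in the DMSO libraries. Slc7a5 encodes the leucine transporter LAT1, and its partner subunit gene Slc3a2 fell with it (log2 -1.72 ± 0.065 (SE; adjusted p = 1.46e-20) for Slc7a5 and -1.20 ± 0.064 for Slc3a2). Nupr1 (-1.80 ± 0.12), the pseudokinase gene Trib3 (-1.43 ± 0.10) and the glutathione-degrading enzyme gene Chac1 (-1.12 ± 0.10) also fell. Atf4 itself fell by -0.35 ± 0.078 and Ddit4 did not pass (-0.17 ± 0.14).

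Among 20 cytosolic aminoacyl-tRNA synthetase genes, 18 fell (15 without MIG-DMSO replicate 3) and 1 rose, with a median of -0.59. Cars had 49.3, 47.9, 53.2 and 50.1 CPM in the ATRA libraries, against 123, 125, 125 and 124 CPM in the DMSO libraries. Cars, for cysteine, fell the most (log2 -1.31 ± 0.049 (SE; adjusted p = 9.47e-21)). Yars for tyrosine (-1.07 ± 0.07), Nars for asparagine (-1.04 ± 0.064), Iars for isoleucine (-0.96 ± 0.05) and Lars for leucine (-0.93 ± 0.054) fell too. Wars had 138, 122, 138 and 129 CPM in the ATRA libraries, against 88.9, 95.9, 107 and 94.5 CPM in the DMSO libraries. Wars, for tryptophan, was the exception that rose (log2 0.45 ± 0.08 (SE; adjusted p = 2.17e-05)). Of 18 ER chaperone and unfolded protein response genes, 5 rose and 4 fell (4 and 3 without MIG-DMSO replicate 3), with a median of 0.092. Among all tested genes 20.6% were higher and 21.2% lower, so these counts are near the background. The chaperone gene Hspa5 was not called (0.14 ± 0.088), the sensor gene Ern1 rose (0.60 ± 0.13) and Herpud1, of ER degradation, fell (-0.48 ± 0.069). These counts ranged from 3 to 9 higher and 2 to 4 lower over the alternative settings and left-out libraries.

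**Figure D4:**
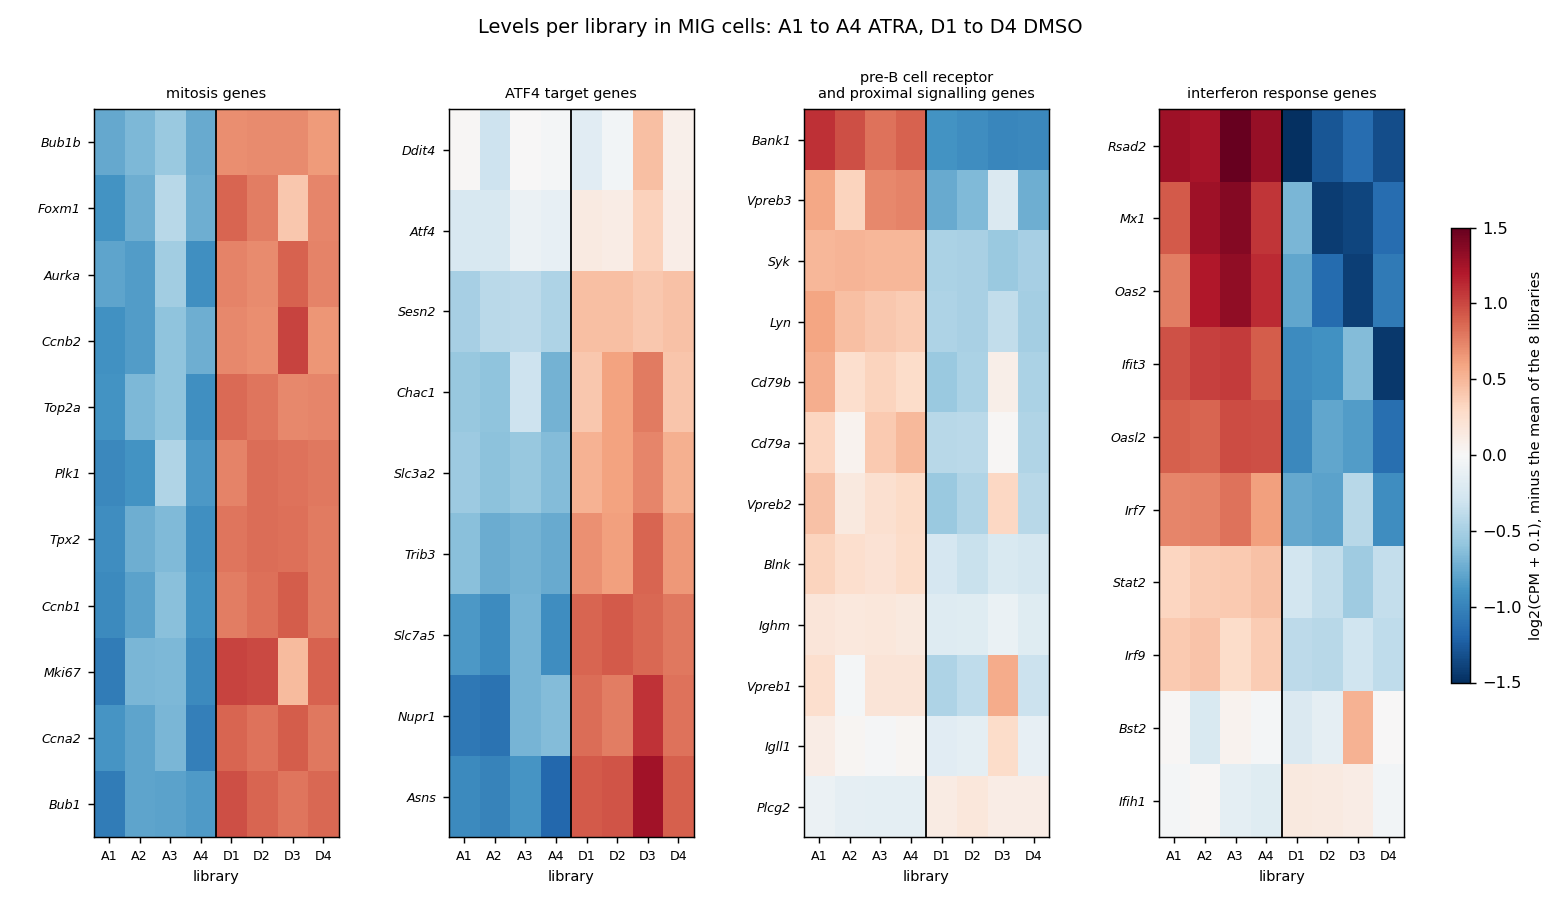
Level of each member of 4 gene lists that is named in the text (rows) in the 8 MIG libraries (columns A1 to A4 ATRA, D1 to D4 DMSO), as log2(CPM + 0.1) minus the mean of the 8 libraries, with colours saturated at -1.5 and 1.5. Mitosis genes and most ATF4 target genes are lower in the 4 ATRA columns, most pre-B cell receptor and interferon response genes higher, and column D3 departs from its group in Vpreb1, Vpreb2 and Igll1.

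The pre-B cell receptor joins the immunoglobulin heavy chain to the surrogate light chain (Igll1, Vpreb1, Vpreb2) and signals through CD79, SYK and the adaptor BLNK. Of 19 genes of this receptor and its proximal signalling, 13 rose (15 without MIG-DMSO replicate 3) and 1 fell, with a median of 0.47. Syk (ENSMUSG00000021457) had 669.6, 672, 669.8 and 667 CPM in the ATRA libraries, against 339, 339, 322 and 334 CPM in the DMSO libraries. Syk, encoding the kinase that CD79 recruits, had its groups far apart relative to their spread (log2 1.01 ± 0.046 (SE; adjusted p = 1.67e-18)). Bank1 had 56.05, 51.1, 45.95 and 48.2 CPM in the ATRA libraries, against 13.96, 13.7, 13.2 and 13.3 CPM in the DMSO libraries. Bank1, a B cell scaffold gene, was 3.72 times as high with ATRA (log2 1.90 ± 0.086 (SE; adjusted p = 1.88e-18)). Lyn, a SRC family kinase gene (0.91 ± 0.074), Blnk (0.54 ± 0.046), Cd79a (0.63 ± 0.15), Cd79b (0.68 ± 0.16) and the heavy chain gene Ighm (0.32 ± 0.059) rose, and the phospholipase gene Plcg2 fell (-0.26 ± 0.056).

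Surrogate light chain genes were higher in 1 DMSO library than in the other 3. Vpreb1 had 883, 724, 848 and 845 CPM in the ATRA libraries, against 538, 567, 1090.3 and 590.1 CPM in the DMSO libraries. MIG-DMSO replicate 3 was the highest of the 8, the other 3 DMSO libraries lay below the ATRA libraries, and the log2 fold change was 0.25 ± 0.23 (SE; adjusted p = 0.415). Without that replicate it was 0.55 with an adjusted p of 0.0414. Igll1 had 901, 846, 825 and 847 CPM in the ATRA libraries, against 742, 753, 1006 and 766 CPM in the DMSO libraries. The same library was again the highest, and Igll1 was not called (log2 0.066 ± 0.10 (SE; adjusted p = 0.655)). Vpreb2 was called (0.52 ± 0.19), but not without MIG-DMSO replicate 1, 2 or 4 or MIG-ATRA replicate 1 (0.44 to 0.47; adjusted p = 0.073 to 0.0957), and its reads may be shared with the near-identical Vpreb1. Vpreb3 rose by 1.18 ± 0.17.

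The recombinase genes of antigen receptor assembly rose. Rag1 (ENSMUSG00000061311) had 28.4, 26.7, 24.8 and 27.3 CPM in the ATRA libraries, against 9.27, 8.18, 8.93 and 7.62 CPM in the DMSO libraries. Rag2 (ENSMUSG00000032864) had 5.13, 4.998, 4.85 and 5.49 CPM in the ATRA libraries, against 2.31, 1.89, 1.96 and 2.303 CPM in the DMSO libraries. Both had ATRA libraries above all DMSO libraries, with log2 fold changes of 1.66 ± 0.10 (SE; adjusted p = 1.71e-15) for Rag1 and 1.28 ± 0.11 (SE; adjusted p = 1.01e-11) for Rag2. Of 10 V(D)J recombination genes, 5 rose and 1 fell (none without MIG-DMSO replicate 3 or MIG-ATRA replicate 3 or 4), the others that rose being Dclre1c, encoding the hairpin nuclease Artemis (0.58 ± 0.13), Lig4 (0.24 ± 0.063) and Xrcc6 (0.19 ± 0.054). The terminal transferase gene Dntt was not called (-0.10 ± 0.11).

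Transcription factors of the B lineage moved in part. Of 25, 12 rose and 5 fell, with a median of 0.18, and the share that fell was near that of all tested genes (21.2%). Spib had 647, 600.2, 660.3 and 663 CPM in the ATRA libraries, against 316, 312, 336 and 319 CPM in the DMSO libraries. Spib, an ETS factor gene related to PU.1, was higher in all 4 ATRA libraries (log2 1.002 ± 0.055 (SE; adjusted p = 2.39e-16)). Ikzf3, encoding AIOLOS, rose by 0.71 ± 0.12, the lineage commitment gene Pax5 by 0.52 ± 0.13, Sfpi1, encoding PU.1, by 0.55 ± 0.15, and Irf8 by 0.35 ± 0.067. Ikzf1 (ENSMUSG00000018654) had 307, 301, 295 and 269 CPM in the ATRA libraries, against 264, 273, 261 and 259 CPM in the DMSO libraries. Ikzf1, encoding IKAROS, narrowly missed the threshold (log2 0.15 ± 0.063 (SE; adjusted p = 0.0554)), and passed it without MIG-DMSO replicate 2 (0.17; adjusted p = 0.0393) or MIG-ATRA replicate 4 (0.19; adjusted p = 0.0194). With all libraries, Ikzf1 passed under DESeq2 (adjusted p = 0.0449) and upper quartile scaling (adjusted p = 0.0275). It also passed with a filter on CPM (adjusted p = 0.0198) or the ribosomal protein share as a covariate (adjusted p = 0.0346). Tcf3 (0.15 ± 0.091) and Irf4 (-0.048 ± 0.062) were not called. Id2, an inhibitor gene of E proteins (-0.83 ± 0.14), Lef1 (-0.61 ± 0.057), Ets1 (-0.57 ± 0.051), Mef2c (-0.43 ± 0.078) and the germinal centre repressor gene Bcl6 (-0.50 ± 0.13) fell.

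Surface genes of the B lineage rose in part. Ms4a1 had 13.1, 13.2, 12.3 and 10.7 CPM in the ATRA libraries, against 2.25, 1.99, 2.04 and 1.93 CPM in the DMSO libraries. Ms4a1, encoding CD20, had a log2 fold change of 2.59 ± 0.14 (SE; adjusted p = 2.29e-16). Tnfrsf13c had 209, 224, 231 and 249 CPM in the ATRA libraries, against 73.1, 75.9, 70.6 and 81.6 CPM in the DMSO libraries. Tnfrsf13c, the BAFF receptor gene, was 3.03 times as high with ATRA, without overlap (log2 1.60 ± 0.12 (SE; adjusted p = 9.29e-13)). Cd40 (1.92 ± 0.23), Cd72 (0.82 ± 0.049) and Ly6d (0.79 ± 0.21) rose, and Enpep, encoding the early B cell antigen BP-1, fell (-0.30 ± 0.055). Of 21 B-lineage surface genes, 20 were tested, 9 rose (10 without MIG-DMSO replicate 3), 1 fell and 10 were not called, and the cytokine receptor gene Il2ra was not called (0.12 ± 0.072). Without MIG-DMSO replicate 3 or MIG-ATRA replicate 2, 2 were lower.

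Homing and adhesion genes included some of the strongest rises. S1pr1 (ENSMUSG00000045092) had 183, 168, 168 and 173 CPM in the ATRA libraries, against 5.74, 5.49, 5.92 and 5.55 CPM in the DMSO libraries. S1pr1, encoding the sphingosine phosphate receptor of lymphocyte egress, was 30.5 times as high with ATRA (log2 4.93 ± 0.084 (SE; adjusted p = 3.52e-30)). Itgb7 (ENSMUSG00000001281) had 56.6, 45.3, 48.5 and 51.8 CPM in the ATRA libraries, against 7.16, 7.33, 7.76 and 7.82 CPM in the DMSO libraries. Itgb7, the integrin β7 gene whose pairing with α4 directs lymphocytes to the gut, had no overlap (log2 2.75 ± 0.11 (SE; adjusted p = 7.55e-20)), while Itga4, for α4, was not called (0.19 ± 0.13). Itgam, encoding integrin αM, rose by 2.10 ± 0.11. Cd44 had 23.7, 22.5, 22.7 and 20.8 CPM in the ATRA libraries, against 55.1, 54.4, 52.9 and 51.6 CPM in the DMSO libraries. Cd44, a hyaluronan receptor gene, fell (log2 -1.26 ± 0.061 (SE; adjusted p = 1.06e-17)), as did the integrin gene Itgb1 (-0.33 ± 0.082). Of 26 listed genes, 25 were tested, 10 rose and 3 fell (4 without MIG-DMSO replicate 3). The gut homing receptor gene Ccr9 (0.68 ± 0.54) and Cxcr4 of bone marrow retention (-0.085 ± 0.077) were not called.

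Interferon response genes rose broadly. Of 26, 24 rose and none fell, 12 of them by at least 2-fold, with a median of 0.86. The promoters of Ifit3 and Rsad2 are printed because these genes were among the strongest of the group, with the interferon-stimulated response element core in capitals, here GAAA, any 2 bases, GAAA on either strand. They are RefSeq sequences of GRCm38.p6 at chr19:34583279-34583578 on the plus strand and chr12:26456403-26456702 on the minus strand.
Ifit3: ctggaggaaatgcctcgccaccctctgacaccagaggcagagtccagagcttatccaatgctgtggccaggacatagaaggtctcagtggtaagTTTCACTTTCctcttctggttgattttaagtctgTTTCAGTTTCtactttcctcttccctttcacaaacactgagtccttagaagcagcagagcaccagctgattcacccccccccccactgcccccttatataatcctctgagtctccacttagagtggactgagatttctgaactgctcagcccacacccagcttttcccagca
Rsad2: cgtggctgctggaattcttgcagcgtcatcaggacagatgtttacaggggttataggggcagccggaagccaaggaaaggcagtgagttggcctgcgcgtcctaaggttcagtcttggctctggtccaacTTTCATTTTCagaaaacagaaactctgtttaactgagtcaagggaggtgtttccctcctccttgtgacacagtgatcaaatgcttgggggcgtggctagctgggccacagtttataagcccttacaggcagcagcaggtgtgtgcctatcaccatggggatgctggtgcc
The Ifit3 promoter had matches 156 to 147 and 122 to 113 bases before the start, and that of Rsad2 had 1 match 120 to 111 bases before it, all on the minus strand. A match was found in 9 of 19 matched interferon response genes (47.4%), against 1079 of 27025 promoters (3.99%). The genes with a match included Ifih1 and Bst2, which were not called. Whether the motif goes with the rise was not tested. Rsad2 had 6.07, 5.92, 7.37 and 6.21 CPM in the ATRA libraries, against 0.738, 0.953, 1.06 and 0.914 CPM in the DMSO libraries. Ifit3 had 11.04, 11.6, 11.7 and 10.7 CPM in the ATRA libraries, against 2.89, 2.97, 3.57 and 1.998 CPM in the DMSO libraries. In both genes every ATRA library exceeded every DMSO library, with log2 fold changes of 2.79 ± 0.18 (SE; adjusted p = 1.37e-14) for Rsad2, the antiviral enzyme viperin, and 1.98 ± 0.15 (SE; adjusted p = 3.99e-13) for Ifit3, an RNA-binding antiviral protein.

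The levels of most of these genes stayed low, and the transcription factor genes of the pathway rose as well. Mx1 (2.37 ± 0.17), Oasl2 (1.89 ± 0.10) and Oas2 (2.23 ± 0.18) are antiviral effectors. Irf7 averaged 12.01 and 4.35 CPM with ATRA and with DMSO (1.47 ± 0.15), Irf9 58.2 and 34.8 CPM (0.74 ± 0.052) and Stat2 155 and 91.1 CPM (0.77 ± 0.068). The RNA sensor gene Ifih1 (-0.17 ± 0.09) and Bst2 (-0.12 ± 0.17, and 0.067 without MIG-DMSO replicate 3) were the 2 members not called.

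Antigen presentation genes rose in part. Of 14 MHC class II pathway genes, 12 rose (10 without MIG-DMSO replicate 3) and 1 fell, with a median of 0.53. Cd74 (ENSMUSG00000024610) had 169, 144, 168 and 166 CPM in the ATRA libraries, against 60.4, 62.4, 71.1 and 63.4 CPM in the DMSO libraries. Cd74, the invariant chain gene, was 2.51 times as high with ATRA (log2 1.33 ± 0.10 (SE; adjusted p = 1.79e-12)), and Ciita, encoding the class II transactivator, rose at low levels (1.21 ± 0.20). Ctss, a protease gene of invariant chain processing (0.68 ± 0.11), H2-DMb2 (0.71 ± 0.12) and H2-Ob (0.36 ± 0.046) rose, the classical gene H2-Ab1 was not called (-0.10 ± 0.21, and 0.11 without MIG-DMSO replicate 3) and the regulator gene Rfxap fell (-0.33 ± 0.084). Of 12 class I pathway genes, 4 rose (5 without MIG-DMSO replicate 3) and none fell, among them the nonclassical gene H2-T23 (0.44 ± 0.11), Tap2 (0.31 ± 0.076) and Tapbp (0.28 ± 0.068) of peptide loading. Reads of H2 genes may be shared between near-identical copies.

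Survival genes of the BCL2 family changed in both directions, 4 of 13 tested up and 5 down (5 and 4 without MIG-DMSO replicate 3). Bcl2 (ENSMUSG00000057329) had 122, 129, 117 and 129.6 CPM in the ATRA libraries, against 203, 224, 170.4 and 231 CPM in the DMSO libraries. Bcl2, the founding antiapoptotic gene, was lower in every ATRA library (log2 -0.74 ± 0.14 (SE; adjusted p = 5.37e-05)). Bmf had 105, 99.2, 91.3 and 96.8 CPM in the ATRA libraries, against 39.4, 42.5, 47.8 and 45.9 CPM in the DMSO libraries. Bmf encodes a proapoptotic BH3-only protein, and its ATRA libraries all lay above the DMSO libraries (log2 1.16 ± 0.062 (SE; adjusted p = 1.41e-16)). The antiapoptotic genes Mcl1 (0.42 ± 0.073) and Bcl2l1 (0.32 ± 0.10) and the BH3-only gene Bcl2l11, encoding BIM (0.48 ± 0.065), rose, whereas Bok (-2.38 ± 0.19) and Bbc3 fell. Without MIG-ATRA replicate 3 or without MIG-ATRA replicate 4, 3 members were lower in place of 5. STAT5 carries much of the BCR-ABL1 signal, and of 13 STAT5 target and SOCS genes 5 rose and 2 fell. Pim1 (ENSMUSG00000024014) had 1071, 1033, 1086 and 1123 CPM in the ATRA libraries, against 468, 489, 474 and 494 CPM in the DMSO libraries. Pim2 (ENSMUSG00000031155) had 41.8, 38.7, 42.9 and 41.7 CPM in the ATRA libraries, against 92.97, 99.2, 101 and 102 CPM in the DMSO libraries. These 2 kinase genes went opposite ways, with log2 fold changes of 1.16 ± 0.055 (SE; adjusted p = 4.57e-18) for Pim1 and -1.26 ± 0.10 (SE; adjusted p = 6.74e-13) for Pim2. The feedback gene Cish rose (0.28 ± 0.071), and Socs2 (0.071 ± 0.048) and Socs3 (-0.14 ± 0.10) were not called.

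ERK feedback and immediate early genes were also split, 7 of 20 up and 7 down. The phosphatase gene Dusp4 (0.80 ± 0.077), the feedback inhibitor gene Spry1 (0.73 ± 0.08), Fos (1.68 ± 0.19) and Jun (0.88 ± 0.086) rose. Spry4 (-1.49 ± 0.14), Spry2 (-0.67 ± 0.07), Egr1 (-0.89 ± 0.13) and the ETS factor gene Etv4 (-1.12 ± 0.10) fell, and Dusp6, a direct readout of ERK activity in many cells, rose by 0.25 ± 0.055.

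Glycolysis and glucose uptake genes fell in part: of 22, 1 rose and 10 fell (8 without MIG-DMSO replicate 3), with a median of -0.32. The lactate transporter gene Slc16a1 (-0.64 ± 0.059), the phosphofructokinase genes Pfkp (-0.60 ± 0.072) and Pfkm (-0.59 ± 0.059) and the hexokinase gene Hk2 (-0.54 ± 0.10) fell, and Ldha, of lactate formation, was not called (-0.39 ± 0.18). Of 23 lysosome genes, 12 rose (15 without MIG-DMSO replicate 3) and 1 fell (none without MIG-DMSO replicate 3 or MIG-ATRA replicate 2 or 4). Laptm5, encoding a lysosomal protein of hematopoietic cells (0.78 ± 0.075), the cathepsin genes Ctsh (0.89 ± 0.13) and Ctsl (1.01 ± 0.14), and Lamp1 (0.52 ± 0.11) rose. Of 15 stem and progenitor genes, 8 were tested, 3 rose and 2 fell, namely Lmo2 (0.70 ± 0.078), Ly6a (0.66 ± 0.17) and Bmi1 (0.18 ± 0.058) up, and Tal1 (-1.37 ± 0.28) and Angpt1 (-0.59 ± 0.13) down.

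Markers of other cell types were summed in the same way. The 13 myeloid markers summed to 14.8 to 17 CPM in the ATRA libraries and 3.68 to 5.18 CPM in the DMSO libraries, mostly through Itgam, and S100a8 and S100a9 were at 0 in all 8. The 11 T and NK cell markers summed to 1.04 to 1.57 CPM with ATRA and 2.7 to 3.29 CPM with DMSO, with Cd28 most of the DMSO sum, and Cd4 and Ncr1 at 0. The 10 stromal and endothelial markers summed to 98 to 107 CPM with ATRA and 59 to 64.6 CPM with DMSO, mostly Pecam1, with Col3a1, Pdgfra and Kdr at 0. Plasma cell markers summed to 454 to 497 CPM with ATRA and 518 to 575 CPM with DMSO, mostly Xbp1 and Irf4. Xbp1 averaged 258 and 311 CPM with ATRA and with DMSO, and Irf4, which was not called, 211 and 218 CPM. Each of these 4 sums, and that of the pre-B markers, had an exact two-sided permutation p of 0.0286, the smallest that 70 assignments of 8 libraries can give. Erythroid and megakaryocyte markers summed to 16 to 22.1 CPM with ATRA and 10.1 to 17.6 CPM with DMSO (exact permutation p = 0.0571). The part of such cells in the changes above was not tested.

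The ATRA response was also measured in IK6 cells, and its difference between the vectors was tested directly as an interaction. Of 15699 genes, 1536 differed (9.78%), 697 with a more positive effect in MIG cells (4.44%), 839 with a more negative one (5.34%) and 259 by at least 2-fold (1.65%). Of 28 genes chosen for these comparisons and tested, 12 differed. Myc had log2 fold changes of ATRA over DMSO of -1.21 in MIG and 0.16 in IK6, a difference of -1.37 ± 0.079 (SE; adjusted p = 5.59e-14). Its ATRA and DMSO means were 128 and 296 CPM in MIG cells, and 285 and 255 CPM in IK6 cells. Larger changes in MIG cells were found for Tgm2 (3.59 in MIG and 2.60 in IK6, a difference of 0.99 ± 0.17 (SE; adjusted p = 1.20e-04)), Cd38 (2.95 in MIG and 2.29 in IK6, a difference of 0.66 ± 0.09 (SE; adjusted p = 3.26e-06)), Rag2 (1.28 in MIG and 0.56 in IK6, a difference of 0.73 ± 0.15 (SE; adjusted p = 0.00128)), Rag1 (1.66 in MIG and 1.19 in IK6, a difference of 0.47 ± 0.13 (SE; adjusted p = 0.0205)) and Cdkn1a (2.20 in MIG and 1.67 in IK6, a difference of 0.53 ± 0.15 (SE; adjusted p = 0.0203)). Bcl2 gave -0.74 in MIG and -0.10 in IK6, a difference of -0.64 ± 0.20 (SE; adjusted p = 0.0332).

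Other genes had smaller log2 fold changes in MIG than in IK6 cells. Asb2 had log2 fold changes of 1.65 in MIG and 3.22 in IK6, a difference of -1.57 ± 0.15 (SE; adjusted p = 5.33e-09), Dhrs3 of 0.79 in MIG and 1.58 in IK6, a difference of -0.79 ± 0.16 (SE; adjusted p = 0.00117), Abcg1 of 2.67 in MIG and 3.08 in IK6, a difference of -0.41 ± 0.079 (SE; adjusted p = 5.85e-04) and Igll1 of 0.066 in MIG and 0.53 in IK6, a difference of -0.47 ± 0.15 (SE; adjusted p = 0.0399). Igll1 had 1006 CPM in MIG-DMSO replicate 3 and 742 to 766 CPM in the rest of that group. The differences of single genes between the vectors were not refitted without that library. Cdkn1b gave 0.12 in MIG and -0.15 in IK6, a difference of 0.27 ± 0.085 (SE; adjusted p = 0.0424). Cyp26a1 (5.24 in MIG and 4.21 in IK6, a difference of 1.02 ± 0.52 (SE; adjusted p = 0.261)), Hic1 (5.56 in MIG and 5.22 in IK6, a difference of 0.35 ± 0.40 (SE; adjusted p = 0.655)) and Ikzf1 (0.15 in MIG and 0.26 in IK6, a difference of -0.11 ± 0.089 (SE; adjusted p = 0.503)) did not differ past the threshold.

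ATRA and bexarotene differed in 3705 of 15699 genes in MIG cells (23.6%), 1720 higher with ATRA (11.0%) and 1985 lower (12.6%), and 639 by at least 2-fold (4.07%). The 2 treatments are set side by side for the genes above. Cd38 averaged 762 CPM with ATRA, 294 with bexarotene and 98.6 with DMSO, with a log2 difference of ATRA over bexarotene of 1.37 ± 0.071 (SE; adjusted p = 1.35e-16). Hic1 averaged 9.72 CPM with ATRA, 0.8395 with bexarotene and 0.195 with DMSO (3.52 ± 0.22 (SE; adjusted p = 3.10e-14)), Cdkn1a 218 CPM with ATRA, 106 with bexarotene and 47.6 with DMSO (1.04 ± 0.12 (SE; adjusted p = 1.54e-08)) and Bcl2 124 CPM with ATRA, 86.96 with bexarotene and 207 with DMSO (0.52 ± 0.15 (SE; adjusted p = 0.0109)). Rag1 averaged 26.8 CPM with ATRA, 33.9 with bexarotene and 8.502 with DMSO (-0.34 ± 0.10 (SE; adjusted p = 0.0106)). For Myc (128 CPM with ATRA, 141 with bexarotene and 296 with DMSO; -0.14 ± 0.06 (SE; adjusted p = 0.0808)) and Rag2 (5.12 CPM with ATRA, 5.09 with bexarotene and 2.11 with DMSO; 0.015 ± 0.11 (SE; adjusted p = 0.951)) the difference was not past the threshold, which does not show that the compounds act alike.

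**Figure D5:**
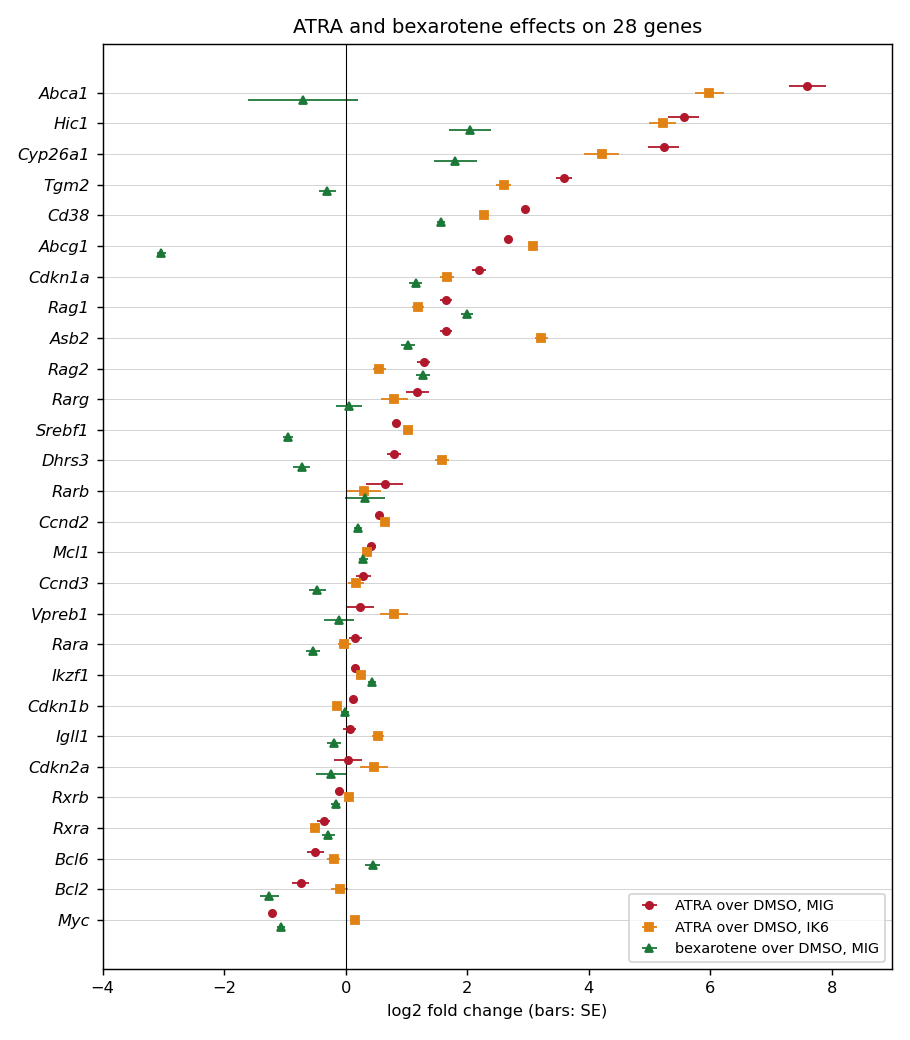
Log2 fold change (horizontal axis, bars SE) of 28 genes for ATRA over DMSO in MIG cells (red circles), ATRA over DMSO in IK6 cells (orange squares) and bexarotene over DMSO in MIG cells (green triangles), ordered by the first. Abcg1, Srebf1 and Dhrs3 lie to the right of 0 with ATRA in both vectors and to the left with bexarotene, and Myc lies left of 0 with both compounds in MIG cells but at 0.16 with ATRA in IK6 cells.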

How the data were processed

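RNA from BCR-ABL1-transformed pre-B cells was extracted with Trizol and made into TruSeq RNA v2 libraries, per the labels' protocols. The deposited values are raw read counts per gene made by the authors, and per the submitters' processing notes BWA 0.5.9 and HTSeq were used with the build mm9. How HTSeq counted, and with which annotation, is not stated in these sources, so overlapping, antisense and near-identical genes are uncertain. Of 35290 genes, 15699 were tested and the others dropped by edgeR's filterByExpr (10 counts in a library, 15 in total). All 37 libraries (10 groups, 27 residual degrees of freedom) entered 1 robust quasi-likelihood fit with TMM scaling. CPM use the same scaling, and the prior count of folds was 0.125. The biological coefficient of variation was 0.112. Tests are two-sided, with Benjamini-Hochberg adjustment over 15699 genes and a threshold of 0.05. Tools were R 4.3.3, edgeR 4.0.16, limma 3.58.1, DESeq2 1.42.0 and Python 3.11.15, with the fit tested on simulated data.

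The comparison, the gene lists and the genes to be named were chosen with earlier results of these data known. The rule named the 12 largest rises and the 12 largest falls of genes of at least 1 CPM without overlap, up to 4 members of each list per direction by smallest adjusted p, a set of retinoid and leukemia genes, and the members of the retinoid lists. A further 68 genes were named for their known role after their values were seen. Some genes of the lists are not reported by name here. Promoters were matched to RefSeq by Ensembl identifier, failing that by symbol, and failing that by a synonym of a single gene. Alternatives were DESeq2, other scalings and filters, a fit of the compared groups only, replicate number as a block, the ribosomal protein share as a covariate, and each library left out in turn.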

Additional observations from a re-analysis of the deposited data

Results flagged for a closer look

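In each group of 4 libraries, the level of every gene named above with at least 40 counts in the group was checked for a library far from the other 3, by Dixon's ratio of the gap to the range at the 95% level. Of 450 gene and group combinations, 52 held such a library, where chance alone gives about 1 in 20, and the combinations are not independent. MIG-DMSO replicate 3 was the far library in 30 of them, the library with the highest ribosomal protein share (14.88%, against 8.97 to 9.51% in the other 3 DMSO libraries). Its part in these levels was not tested.

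The values that follow are CPM of the far library. MIG-ATRA replicate 1 lay above the rest of its group in Plcg2 (419.5), Ldha (2644) and Pecam1 (107). MIG-ATRA replicate 2 lay above the rest of its group in Cth (10.9) and Rarb (1.18). MIG-ATRA replicate 2 lay below the rest of its group in Megf10 (0.503), Cd74 (144), H2-DMb2 (24.5), Cdkn2a (65.7), Ddit4 (182), H2-Ab1 (47.4), Tll2 (0.473) and Ucp2 (1552). MIG-ATRA replicate 3 lay above the rest of its group in Herpud1 (119) and Plk1 (26.7). MIG-ATRA replicate 3 lay below the rest of its group in Cdkn1b (193). MIG-ATRA replicate 4 lay above the rest of its group in Cd300lf (46.6). MIG-ATRA replicate 4 lay below the rest of its group in Rrm1 (78.4) and Nars (140.1). MIG-DMSO replicate 1 lay above the rest of its group in Cpeb1 (3.82). MIG-DMSO replicate 1 lay below the rest of its group in Cd72 (103). MIG-DMSO replicate 3 lay above the rest of its group in Bok (8.46), Asns (229), Bcl2l1 (101), Cdkn2c (53.96), Ctss (90.1), Slc16a1 (243), Retsat (23.98), Ccnd3 (1298) and Igll1 (1006). It also stood above the others in Vpreb1 (1090.3), Cdkn2a (115), Atf4 (267), Ccnb2 (94.95), Cd79a (1182), Cd79b (529), Dusp6 (280.4), Hspa5 (628) and Ighm (1488). It also stood above the others in Impdh2 (367), Lpcat3 (80.2), Ly6d (15.9), Mcm5 (128), Paics (351), Phgdh (369), Vpreb2 (322) and Vpreb3 (503). MIG-DMSO replicate 3 lay below the rest of its group in Mef2c (217), Bcl2l11 (103), Ncoa3 (117) and Itga4 (244). MIG-DMSO replicate 4 lay above the rest of its group in Il2ra (42.2).

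By total counts, MIG-ATRA replicate 3 was the smallest of its group at 16.5 (in units of 1000000 counts), against 33.3 to 34.2 in the other 3, and MIG-DMSO replicate 2 the largest of its group at 48, against 29.4 to 31.1.

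The ATRA effect differed between MIG and IK6 cells, by a test of the difference itself, in 12 of 28 genes compared. As log2 effect in MIG minus that in IK6, the differences were Dhrs3 (-0.79), Cd38 (0.66), Tgm2 (0.99), Asb2 (-1.57), Abcg1 (-0.41) and Myc (-1.37). The others were Cdkn1a (0.53), Cdkn1b (0.27), Rag1 (0.47), Rag2 (0.73), Igll1 (-0.47) and Bcl2 (-0.64). These differences of single genes were not refitted with a library left out.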

How the results depend on the processing

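The count of genes changed by ATRA, 6566, was 6017 to 8428 under 8 other settings: DESeq2 (6521), other scalings (6554 and 6598), no filter (6017), a filter on CPM (6277), the compared groups alone (6162), the ribosomal protein share as a covariate (8428) and replicate numbers as a block. Leaving out 1 library gave 5829 to 6283, and of the 6566 genes 87% to 99.6% were called in each setting with the same direction. Changes of at least 2-fold numbered 1030 to 1457, and the share of higher calls was 48.1% to 52.1%. Genes whose ATRA effect differed between MIG and IK6 cells, 1536, became 2581 with the compared groups alone and 2698 with the covariate, and 1254 to 1471 with 1 library left out. Genes that differed between ATRA and bexarotene, 3705, became 5987 with the covariate and 2998 to 3435 with 1 library left out. The cause was not tested. Replicate numbers were shared by the groups, but libraries of the same number did not deviate together (correlations -0.23, 0.126, 0.0177 and -0.0449), not every library correlated best with its own number, and with the numbers as a block 6349 genes were called. Some uncalled genes changed sign: Bst2 was 0.059 with the covariate and -0.194 to 0.06701 with 1 library left out, H2-Ab1 0.12 and -0.191 to 0.107, and Cdkn2a -0.0428 to 0.299 with 1 library left out. Of 206 called genes named above, 200 kept call and direction in all 16 settings. A further 12 named genes were called only under an alternative. With the covariate these included Vpreb1 (0.52; adjusted p = 3.86e-12), Cdkn2a (0.30; adjusted p = 3.85e-04) and Igll1 (0.16; adjusted p = 0.00244). At the depth of 16478899 to 47969941 counts per library, the 19591 genes below the filter could not be compared.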

Other observations

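By gene class, the shares called are given beside those of all tested genes (41.8%, with 20.6% higher and 21.2% lower). The classes were not matched by level, so these shares do not compare how strongly they respond. Of 374 tested antisense genes, 54 were higher with ATRA and 19 lower (19.5% called), of 949 pseudogenes 69 were higher and 120 lower (19.9%), and of 681 lincRNA genes 87 were higher and 101 lower (27.6%). The library kit named in the labels does not mark strand, so reads of an antisense gene and its partner cannot be told apart. Of 81 immunoglobulin V genes tested, 14 were higher and 19 lower (40.7%), and of 14 J genes 4 were higher and 7 lower (78.6%). Of 179 small nucleolar RNA genes, 9 were higher and 13 lower (12.3%).

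6 genes had at most 3 counts over the 4 DMSO libraries and at least 40 over the 4 ATRA libraries. Beside Mras and Tll2 these were Pira2, a paired immunoglobulin-like receptor gene with 62 counts with ATRA and 2 with DMSO (ratio 36.4, exact 95% interval 9.65 to 307), and the noncoding genes E230013L22Rik (100 and 2 counts; ratio 58.6, 15.8 to 491), Gm11730 (65 and 1; ratio 76.2, 13.2 to 3060) and Gm11690 (40 and 2; ratio 23.5, 6.08 to 200). No gene met the reverse, at most 3 counts with ATRA and at least 40 with DMSO.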
